A study of Mus musculus with 6 samples.

Results

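A set of 36 genes of glycolysis and the hypoxia response was followed in neural progenitor cells made from mouse embryonic stem cells (mESCs). The set holds 24 genes of the glycolytic arm (glucose and lactate transporters, the enzymes of the pathway, the enzyme genes that set the fate of pyruvate) and 12 genes of the hypoxia arm (the factor Hif1a and genes it is known to induce or be regulated by). Members were the rows of the count table whose Ensembl identifier carries one of these symbols in GENCODE M21. All 36 were found among 48526 rows, and all 36 passed the filter on low counts that left 20549 genes to be tested.

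The RNA came from 3 libraries of a line labelled -/- for Dmrta2, a transcription factor gene of dorsal telencephalic progenitors, and 3 libraries of a flox/flox line, which carries recombinase sites in Dmrta2 and was the control. Each genotype was 1 line, so that line and genotype cannot be told apart, and p-values here cover only variation among samples of a line. Both groups were differentiated without serum in N2B27 medium with LDN193189 at 100 nM and SB431542 at 10 µM (inhibitors of BMP and TGF-beta family receptors) until day 4, XAV939 at 1 µM (a Wnt pathway inhibitor) until day 6, and cyclopamine at 1 µM (a Hedgehog pathway inhibitor) from day 2. The cells were replated on day 5, and RNA was taken on day 8. The sources used here give no oxygen tension or glucose concentration.

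Glycolysis splits glucose into pyruvate. Its preparatory phase spends ATP to make triose phosphates, and its payoff phase returns ATP and NADH. Pyruvate is then reduced to lactate by lactate dehydrogenase or oxidised in mitochondria by pyruvate dehydrogenase, which the Pdk kinases switch off. When oxygen is low, the prolyl hydroxylases of the Egln family no longer mark HIF1A for destruction, and the factor then activates glucose transporter, glycolytic and other genes by binding the core letters ACGTG or GCGTG. Neural progenitors are known to rely strongly on glycolysis, and neurons to rely more on oxidative metabolism.

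In the libraries labelled -/-, 14 of the 36 members fell and 4 rose ("fell" and "rose" are used of genes with an adjusted p under 0.05, by edgeR's quasi-likelihood test). Over all genes tested 17.4% fell and 17.9% rose, 35.3% together. The strongest falls were in the glucose transporter gene Slc2a3 (3.84-fold), the pyruvate dehydrogenase kinase gene Pdk1 (2.84-fold), the stress-response gene Ndrg1 (2.82-fold), the collagen hydroxylase gene P4ha1 (2.32-fold) and, at a low level, the peptide hormone gene Adm (9.50-fold). The 4 that rose were Pfkm, Hk1, Ddit4 and P4ha2. Without flox/flox B or without -/- B, 11 fell and 2 rose, and over all single libraries left out the number that fell lay between 11 and 16. Of all genes tested, 2402 fell and 2315 rose without flox/flox B, and 2342 fell and 2677 rose without -/- B. With all libraries these numbers were 3571 and 3679. With the library letter as a block, 19 members fell and 6 rose, where 20.3% of all genes tested fell and 21.2% rose. The median log2 fold change of the 36 was -0.31, against -0.00253 over all genes tested, and it was -0.31 in each arm.

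**Figure D1:**
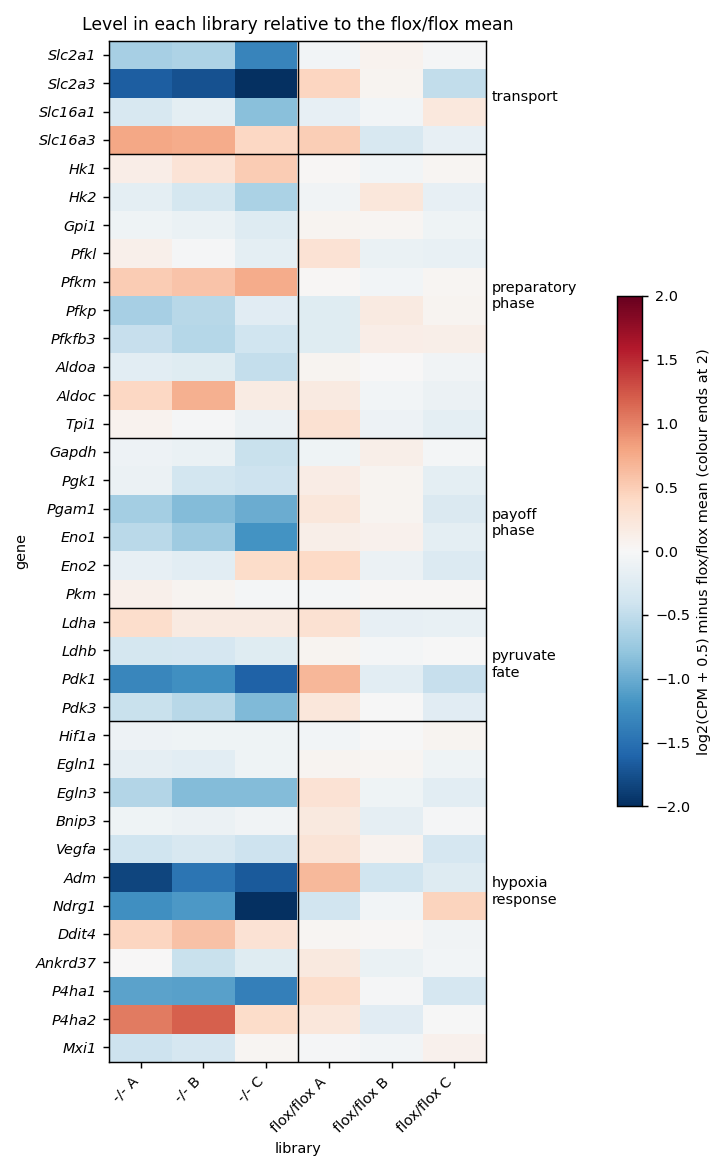
Level of each of the 36 genes (down the page, by role) in each library (across), as log2(CPM + 0.5) minus the mean of the 3 flox/flox libraries. Blue is below and red above that mean, and colour ends at a difference of 2. Slc2a3, Pdk1, Adm, Ndrg1 and P4ha1 were blue in all 3 libraries labelled -/-, while Pkm and Hif1a stayed near white.

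**Figure D2:**
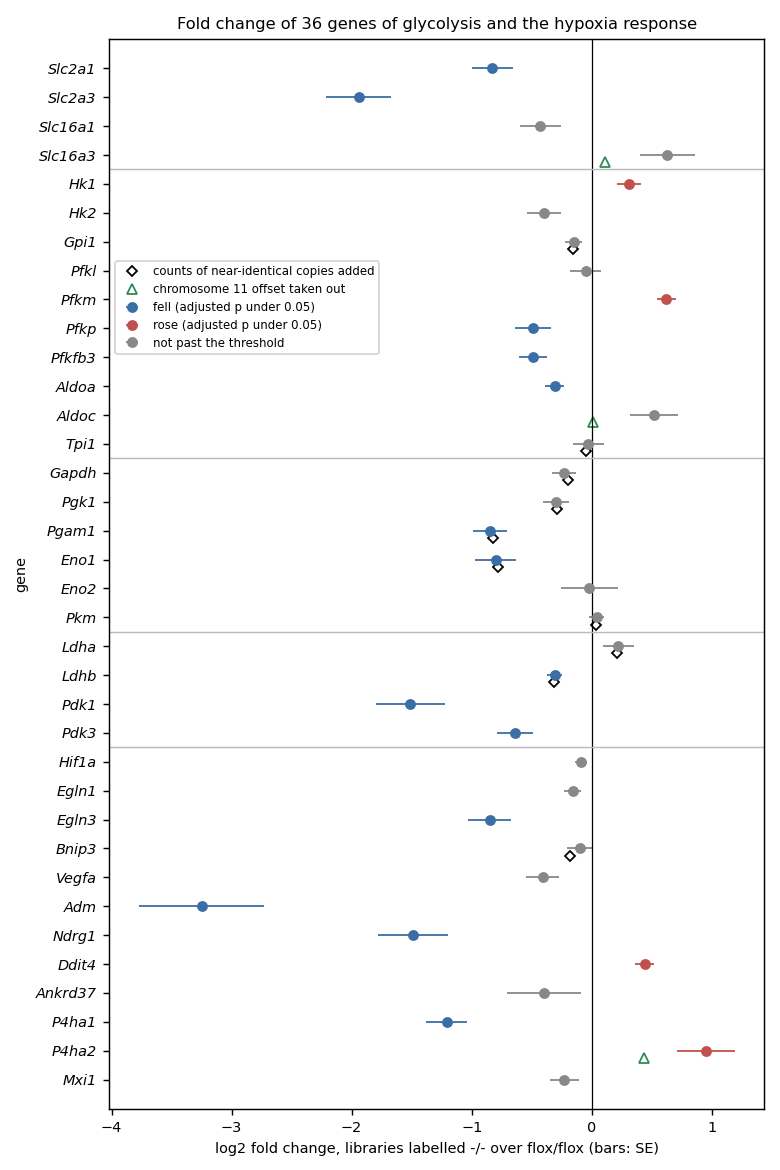
Log2 fold change (libraries labelled -/- over flox/flox, horizontal axis) with its SE for each gene. Blue points fell, red points rose and grey points did not pass. Open diamonds are values with counts of near-identical copies added, and open triangles values of the 3 genes of chromosome 11 after its overall shift was taken out. Adm lies farthest left, at -3.25.

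The levels of the groups did not overlap for 17 members that were lower in the libraries labelled -/- and 4 that were higher. Over all genes tested 25.4% were apart and lower and 25.5% apart and higher, 51.0% together. Total counts were between 24565560 and 39646793 per library. Dmrta2 itself, counted over the whole gene, was at 409, 414 and 439 CPM (read counts scaled by TMM to a common library size) in the libraries labelled -/-, against 85.2, 75.1 and 79.2 CPM in flox/flox (values of single libraries are given in the order A, B, C throughout). The count thus went up under the -/- label. Which exons were deleted is not in the labels, and the count therefore does not check them. Genes of chromosome 11 were higher as a group, with a median log2 fold change of 0.49 against -0.02 on the other chromosomes. Slc16a3, Aldoc and P4ha2 lie on that chromosome, and their values are also given with an offset of 0.516 taken out.

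Marker genes of several cell types differed between the groups, in some lists more than in others. Over all genes tested 17.4% fell and 17.9% rose. Of 14 neuron markers 13 rose, among them Mapt (1.79 ± 0.27, log2, SE), Syt4 and Syp. The summed level of the 14 ran from 3390 to 5670 CPM in the libraries labelled -/- and from 1700 to 2790 CPM in flox/flox. Mapt and Rbfox3 lie on chromosome 11. With its offset Mapt was at 1.27, while Rbfox3 was at 0.78 and no longer passed (adjusted p = 0.0992, edgeR). Of 12 markers of the cortical hem and choroid plexus 11 fell, led by Lmx1a, Rspo3 and Rspo2, with sums of 283 to 356 CPM in libraries labelled -/- and 1310 to 1960 CPM in flox/flox. The 14 neural progenitor markers were divided, with 7 that rose (among them Pax6, Notch1 and Fabp7) and 5 that fell (among them Sox2 and Hes1), and sums of 3720 to 4030 CPM in libraries labelled -/- and 3810 to 4330 CPM in flox/flox. Of 8 pluripotency markers tested 4 fell (Esrrb, Tfcp2l1, Pou5f1 and Dppa5a), with sums of 65.3 to 91.5 CPM in libraries labelled -/- and 110 to 120 CPM in flox/flox. Of 8 tested genes listed as mesoderm and endoderm markers, 4 rose (Sox17, Foxa2, Eomes and Gata6) and 1 fell. Their sums were 137 to 160 CPM in libraries labelled -/- and 78.6 to 121 CPM in flox/flox. Whether these genes, Eomes among them, mark such cells in this neural culture was not tested. Without Eomes the groups overlapped, with 39.9 to 68.0 CPM in libraries labelled -/- and 46.0 to 65.6 CPM in flox/flox (both sums without a gene were chosen after the values were seen). Blood and endothelial markers fell in 1 of 4 tested, Kdr, with sums of 9.22 to 21.4 CPM in libraries labelled -/- and 57.8 to 91.7 CPM in flox/flox. Without Kdr the groups overlapped, with 6.33 to 15.5 CPM in libraries labelled -/- and 13.0 to 29.4 CPM in flox/flox. Gata1, Hba-a1, Hbb-y, Ptprc and Tie1 had too few reads to be tested. In bulk RNA, fewer cells of a type and less RNA per cell cannot be told apart, and the part of these markers in the results below was not tested.

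Promoter windows of 4 members are shown because Adm and P4ha1 fell the most among hypoxia genes with an entry, P4ha2 is the paralog of P4ha1 that rose, and Ldha, which did not pass, held the most motifs (the last 2 were chosen after their values were seen). They are RefSeq windows on GRCm38.p6, from 250 bases before to 50 after the start of transcription, 5′ to 3′ along the gene. Capitals mark ACGTG and GCGTG, the core letters bound by HIF, on either strand (the reverse reads CACGT or CACGC).
Adm, chr7:110627407-110627706, plus strand: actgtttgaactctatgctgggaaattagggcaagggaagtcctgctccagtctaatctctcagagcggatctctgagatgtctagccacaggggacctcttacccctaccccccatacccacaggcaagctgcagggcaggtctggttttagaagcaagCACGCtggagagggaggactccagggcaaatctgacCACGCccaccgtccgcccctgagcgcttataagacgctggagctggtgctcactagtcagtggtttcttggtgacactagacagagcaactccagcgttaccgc
P4ha1, chr10:59323046-59323345, plus strand: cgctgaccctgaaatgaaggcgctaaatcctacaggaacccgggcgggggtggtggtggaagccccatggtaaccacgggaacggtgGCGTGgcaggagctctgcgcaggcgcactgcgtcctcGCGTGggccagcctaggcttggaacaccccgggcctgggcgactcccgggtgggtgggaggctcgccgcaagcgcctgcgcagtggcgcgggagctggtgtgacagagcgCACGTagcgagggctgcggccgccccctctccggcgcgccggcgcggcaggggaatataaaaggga
P4ha2, chr11:54100674-54100973, plus strand: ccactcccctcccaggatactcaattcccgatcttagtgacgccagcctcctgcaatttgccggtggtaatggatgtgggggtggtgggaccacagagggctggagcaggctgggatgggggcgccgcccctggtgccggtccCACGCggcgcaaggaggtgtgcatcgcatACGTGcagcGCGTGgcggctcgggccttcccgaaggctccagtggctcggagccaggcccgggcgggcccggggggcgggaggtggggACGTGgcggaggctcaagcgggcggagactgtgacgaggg
Ldha, chr7:46845554-46845853, plus strand: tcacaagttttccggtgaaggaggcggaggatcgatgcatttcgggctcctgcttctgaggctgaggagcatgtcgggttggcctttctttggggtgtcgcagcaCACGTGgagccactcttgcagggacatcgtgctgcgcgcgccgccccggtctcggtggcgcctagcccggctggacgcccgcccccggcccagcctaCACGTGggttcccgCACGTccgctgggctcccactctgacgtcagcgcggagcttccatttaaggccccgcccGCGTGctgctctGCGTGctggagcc

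The Adm window held 2 of these motifs, that of P4ha1 3, that of P4ha2 4 and that of Ldha 7. The palindrome CACGTG, also known as an E-box, counts on both strands, and Ldha held it at 2 places. Of the 36 members 34 had an entry, with 50 windows in all (Slc2a3 and Ndrg1 had none). At least 1 motif was present in 40 of the 50 windows (80.0%), against 43.8% of all 32851 windows and 60.1% of the 14552 windows of protein-coding genes that were tested. Windows of members that fell held one in 16 of 18 cases and those of members that did not pass in 18 of 24. In members that rose it was 6 of 8. For ACGTG alone the order was the other way, with 9 of 18 windows of members that fell, 15 of 24 of those that did not pass and 5 of 8 of those that rose. ACGTG was in 58.0% of member windows, 19.6% of all windows and 24.2% of those of tested protein-coding genes. Windows are not independent cases, as the 18 come from 12 genes and some windows of a gene overlap. A match of letters does not show that a factor binds there. The members were chosen as genes of glycolysis and the hypoxia response, among them known HIF targets. Their higher share of windows with a motif therefore says nothing about these libraries.

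**Figure D3:**
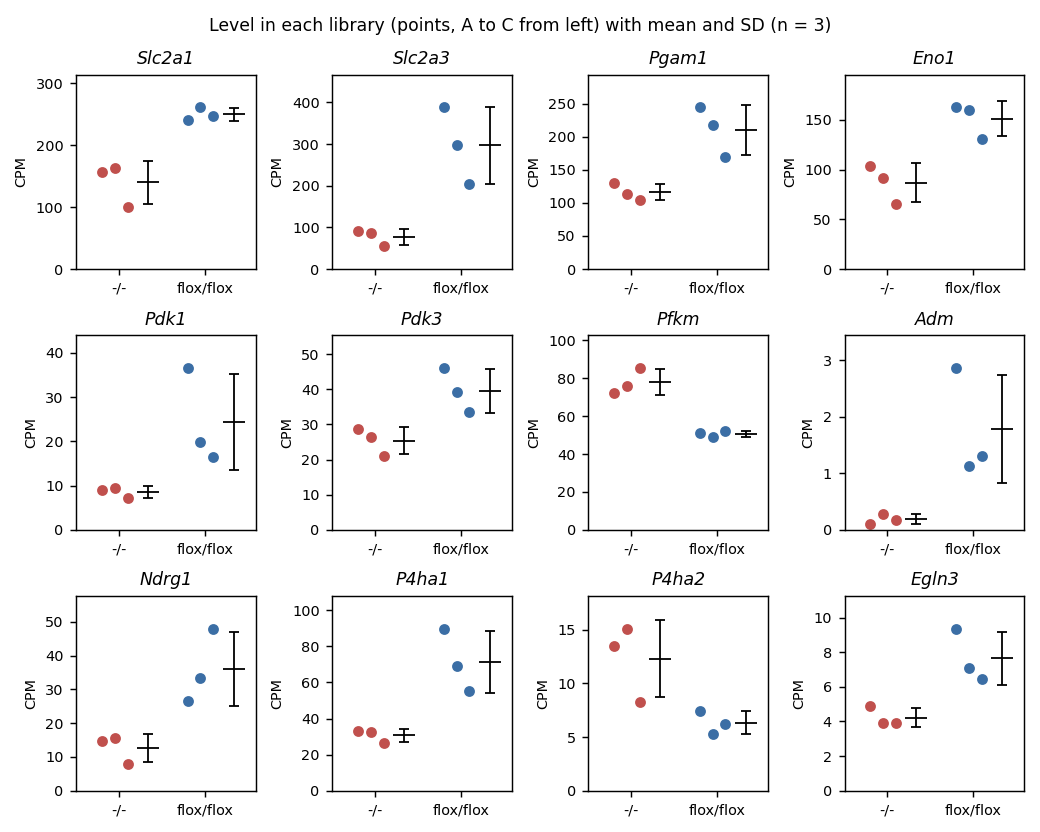
Level (CPM, vertical axes starting at 0) of 12 genes in each library. Points are libraries A, B and C from left to right, and the bar beside them is the mean with its SD (n = 3). For all 12 the points of the groups do not overlap. Pfkm and P4ha2 are the genes that lie higher in the libraries labelled -/-.

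Both glucose transporter genes fell. Slc2a3 encodes GLUT3, the high-affinity transporter that is prominent in neurons and early embryos. It measured 91.5, 85.6 and 55.0 CPM in the libraries labelled -/-, against 389, 298 and 205 CPM in flox/flox. Every library labelled -/- was far below the lowest control, although the controls themselves spread widely. The log2 fold change was -1.94 ± 0.27 (SE; adjusted p = 0.00176, edgeR). Slc2a1 encodes GLUT1, the basal transporter of most cells. It measured 157, 163 and 100 CPM in the libraries labelled -/-, against 241, 262 and 247 CPM in flox/flox. The controls lay close together and -/- C was the lowest library. The log2 fold change was -0.83 ± 0.17 (adjusted p = 0.00809, edgeR).

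Neither of the 2 members that encode monocarboxylate carriers, which move lactate and pyruvate across the cell membrane, passed. Slc16a1, encoding MCT1, measured 53.0, 57.8 and 36.8 CPM in the libraries labelled -/-, against 59.3, 64.0 and 76.5 CPM in flox/flox. The log2 difference was -0.43 ± 0.17 (adjusted p = 0.0858, edgeR), with groups that did not overlap. It passed with the DESeq2 Wald test (adjusted p = 0.0488). Slc16a3, encoding the lactate exporter MCT4, averaged 15.2 ± 2.05 CPM in the libraries labelled -/- and 9.81 ± 3.26 CPM in flox/flox (adjusted p = 0.0666, edgeR; errors of means are the SD of 3 libraries and those of log2 values the SE). Its log2 difference was 0.63 ± 0.23, and 0.11 with the chromosome 11 offset. It passed without flox/flox A, the highest control (0.94, adjusted p = 0.00610, edgeR), with no low-count filter (0.0372), by DESeq2 (0.0266) and limma-voom (0.0462), and in a fit with the letter of each library as a block (adjusted p = 0.0156, edgeR).

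In the preparatory phase, 3 of 10 genes fell and 2 rose. The hexokinases commit glucose to the cell. Hk1, the form that is common in neurons, averaged 59.5 ± 7.92 CPM in the libraries labelled -/- and 48.0 ± 1.80 CPM in flox/flox, a rise of 0.31 ± 0.10 (log2, SE; adjusted p = 0.0445, edgeR). This call was lost without flox/flox A, B or C or without -/- B or C in turn (adjusted p between 0.0563 and 0.143, edgeR) and by limma-voom (0.0548). Hk2, the inducible form, averaged 54.2 ± 8.20 CPM in libraries labelled -/- and 71.6 ± 10.4 CPM in flox/flox. Its log2 value was -0.40 ± 0.14 and missed the threshold (adjusted p = 0.0579, edgeR). It passed in the blocked fit (0.0123), by DESeq2 (0.0317), without flox/flox C (0.0464) and without -/- A (0.0417).

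Among the subunit genes of phosphofructokinase, the pacemaker enzyme of the pathway, the muscle form rose and the platelet form fell. Pfkm measured 72.4, 75.7 and 85.5 CPM in the libraries labelled -/-, against 51.3, 48.9 and 52.0 CPM in flox/flox. All libraries labelled -/- were higher, by 0.62 ± 0.08 (log2, SE; adjusted p = 0.00115, edgeR), and 10.7% of its exonic bases overlap other genes, mostly Gm26513 on the same strand. Pfkp averaged 34.1 ± 5.76 CPM in libraries labelled -/- and 47.8 ± 7.14 CPM in flox/flox, with overlapping groups. It fell by 0.49 ± 0.15 (adjusted p = 0.0374, edgeR), a call lost without flox/flox B (0.132), flox/flox C (0.0835), -/- A (0.106) or -/- B (0.129). The liver form Pfkl averaged 84.2 ± 8.94 CPM in libraries labelled -/- and 87.0 ± 15.6 CPM in flox/flox and did not pass (-0.05 ± 0.13). Its difference turned positive without flox/flox A (0.11) or without -/- C (0.04). Pfkfb3 makes fructose-2,6-bisphosphate, the strongest activator of phosphofructokinase. It averaged 21.6 ± 1.36 CPM in libraries labelled -/- and 30.4 ± 4.36 CPM in flox/flox and fell by 0.49 ± 0.12 (adjusted p = 0.0146, edgeR), a call lost without flox/flox B (0.0622) or -/- B (0.0677).

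Of the other preparatory genes, 1 passed. The aldolase gene Aldoa averaged 184 ± 17.5 CPM in the libraries labelled -/- and 227 ± 9.88 CPM in flox/flox, and it fell by 0.31 ± 0.08 (adjusted p = 0.0200, edgeR). That call was lost without flox/flox A (0.0622), flox/flox B (0.0700) or -/- B (0.0526). Aldoc, the brain aldolase, was at 3.33 ± 0.741 CPM in libraries labelled -/- and 2.31 ± 0.314 CPM in flox/flox, or 0.52 ± 0.20 on the log2 scale (adjusted p = 0.0855, edgeR), and 0.01 with the chromosome 11 offset. It passed without -/- C (0.0375). Neither Gpi1, the isomerase gene (-0.15 ± 0.07), nor Tpi1, which interconverts the triose phosphates (-0.03 ± 0.13), passed. Gpi1 did in the blocked fit (adjusted p = 0.0367, edgeR), and the sign of Tpi1 turned without flox/flox A (0.14) or -/- C (0.02). For Gpi1, 11.5% of the exonic bases overlap another gene.

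In the payoff phase, Pgam1 and Eno1 fell (33.3%, against 17.4% of all genes tested) and the other 4 genes did not pass. Pgam1, the phosphoglycerate mutase gene, measured 130, 114 and 105 CPM in the libraries labelled -/-, against 245, 217 and 170 CPM in flox/flox. The groups were well apart, with a log2 fold change of -0.85 ± 0.14 (adjusted p = 0.00330, edgeR). Eno1 encodes the ubiquitous enolase. It measured 104, 91.8 and 65.5 CPM in the libraries labelled -/-, against 163, 160 and 131 CPM in flox/flox, a change of -0.80 ± 0.17 (adjusted p = 0.00928, edgeR). Eno2, the neuronal enolase and a common neuron marker, averaged 8.00 ± 2.01 CPM in libraries labelled -/- and 8.08 ± 2.23 CPM in flox/flox (-0.02 ± 0.24, adjusted p = 0.952, edgeR), and its sign turned without flox/flox A (0.22), -/- A (0.07) or -/- B (0.10).

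Gapdh, often used as a reference transcript, averaged 82.2 ± 10.3 CPM in the libraries labelled -/- and 96.2 ± 7.20 CPM in flox/flox (-0.23 ± 0.10, adjusted p = 0.127, edgeR). Pgk1, the X-linked phosphoglycerate kinase gene, averaged 32.1 ± 3.60 CPM in libraries labelled -/- and 39.6 ± 4.66 CPM in flox/flox (-0.30 ± 0.11, adjusted p = 0.0741, edgeR). It passed in the blocked fit (0.0105), without flox/flox C (0.0310) and without -/- A (0.0384). Pkm, the pyruvate kinase gene, had the highest level per length of the 36 by reads counted at the gene alone, at 131 CPM per kilobase of exon in the libraries labelled -/- and 127 CPM per kilobase in flox/flox. Its log2 difference was 0.04 ± 0.06 (adjusted p = 0.600, edgeR), and 15.3% of its exonic bases overlap Gm49759, which has no row among the counts. The lowest level per length was that of Adm in the libraries labelled -/- (0.116 CPM per kilobase) and that of Ankrd37 in flox/flox (0.444 CPM per kilobase).

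For 10 members, other genes of the table have transcripts that are near copies, with at least 95% identity over at least 300 bases. Most of these are processed pseudogenes, and reads can be divided between a gene and its copies. The table held 98 copies of Gapdh with 502343 counts over the 6 libraries, beside 16358 at Gapdh itself, which is 30.7 times as many. Copies held 8.03 times the counts of the gene for Eno1 (3 copies, among them Eno1b), 6.56 times for Pgk1 (2 copies), 1.85 times for Gpi1, 1.01 times for Pgam1 and 0.966 times for Pkm. The ratios were 0.569 for Ldhb, 0.544 for Bnip3, 0.265 for Tpi1 and 0.207 for Ldha. The levels per length given for these 10 genes cover only reads counted at the gene itself, and the order turns when copies are added (a comparison chosen after the values were seen). Gapdh then came first, at 636 CPM per kilobase in the libraries labelled -/- and 728 CPM per kilobase in flox/flox. Pkm was at 256 CPM per kilobase in the libraries labelled -/- and 250 CPM per kilobase in flox/flox.

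Copies are a second count of much the same sequence and no independent measure. Summed copies of Pgam1 were at 131, 121 and 111 CPM in the libraries labelled -/-, against 248, 211 and 166 CPM in flox/flox. Those of Eno1 were at 817, 722 and 576 CPM in the libraries labelled -/-, against 1360, 1210 and 1060 CPM in flox/flox. For both, every library labelled -/- was below every control, as at the gene. With copies added, Pgam1 changed by -0.82 ± 0.14 (adjusted p = 0.00406, edgeR), Eno1 by -0.78 ± 0.14 (0.00524) and Ldhb by -0.32 ± 0.06 (0.00636). Gapdh then averaged 2630 ± 347 CPM in the libraries labelled -/- and 3010 ± 104 CPM in flox/flox (-0.20 ± 0.10, adjusted p = 0.160). Pkm averaged 1280 ± 68.8 CPM in libraries labelled -/- and 1250 ± 25.6 CPM in flox/flox (0.04 ± 0.06, adjusted p = 0.662). For Bnip3 the copies were lower by more than the gene, with log2 ratios of group means of -0.31 at the copies and -0.10 at the gene. No call among the 36 members changed when copies were added.

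**Figure D4:**
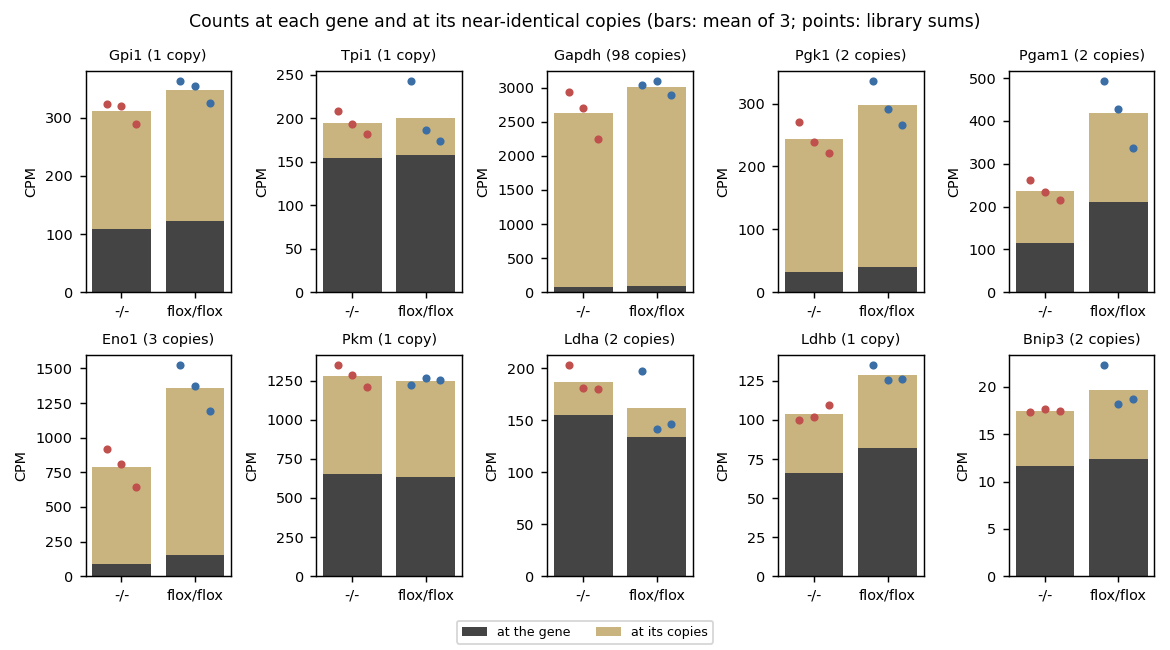
CPM at each of 10 genes (dark) and at its near-identical copies (light), as stacked means of 3 libraries for the groups labelled -/- and flox/flox (axes start at 0). Points are the sums of gene and copies in each library. For Gapdh, Pgk1 and Eno1 most counts are at copies, and the sums for Pgam1 and Eno1 are lower in all 3 libraries labelled -/-.

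Of the genes that set the fate of pyruvate, 3 of 4 fell (75.0%), where 17.4% of all genes tested fell. Pdk1, a HIF target whose product keeps pyruvate out of the mitochondrial cycle, measured 8.95, 9.55 and 7.14 CPM in the libraries labelled -/-, against 36.6, 19.8 and 16.5 CPM in flox/flox. Flox/flox A stood above the other controls, and the groups did not overlap. The log2 fold change was -1.51 ± 0.29 (adjusted p = 0.00710, edgeR). Pdk3, a kinase of the same family on the X chromosome, measured 28.6, 26.5 and 21.0 CPM in the libraries labelled -/-, against 46.1, 39.1 and 33.5 CPM in flox/flox. It was lower in all 3 libraries labelled -/-, by -0.64 ± 0.15 (adjusted p = 0.0136, edgeR).

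Of the lactate dehydrogenase genes, 1 passed. Ldhb, whose subunit favours the conversion of lactate to pyruvate, averaged 66.1 ± 2.76 CPM in the libraries labelled -/- and 82.1 ± 2.71 CPM in flox/flox, and it fell by 0.31 ± 0.06 (adjusted p = 0.00582, edgeR). Ldha, the hypoxia-induced subunit that favours lactate, measured 168, 149 and 150 CPM in the libraries labelled -/-, against 164, 118 and 119 CPM in flox/flox. Flox/flox A lay among the libraries labelled -/-. The log2 value of 0.22 ± 0.13 missed the threshold (adjusted p = 0.242, edgeR). It passed without flox/flox A (0.39, adjusted p = 0.0122) and in the blocked fit (0.0371).

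In the hypoxia arm 4 of 12 genes fell (33.3%) and 2 rose (16.7%), against 17.4% and 17.9% of all genes tested. The factor gene itself did not pass. Hif1a was at 216 ± 1.43 CPM in the libraries labelled -/- and 231 ± 8.43 CPM in flox/flox (-0.09 ± 0.05, adjusted p = 0.187, edgeR). Of its exonic bases, 8.11% overlap other genes. Its amount is known to be set mainly by protein breakdown, which counts of RNA do not show. Of the oxygen-sensing hydroxylases, Egln3, itself a HIF target, measured 4.88, 3.91 and 3.91 CPM in the libraries labelled -/-, against 9.36, 7.10 and 6.45 CPM in flox/flox. All 3 libraries labelled -/- were lower, by -0.85 ± 0.18 (adjusted p = 0.00920, edgeR). Egln1, the main hydroxylase at normal oxygen, averaged 62.4 ± 3.11 CPM in libraries labelled -/- and 69.9 ± 3.84 CPM in flox/flox and did not pass (-0.16 ± 0.07, adjusted p = 0.0970, edgeR).

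Adm encodes adrenomedullin, a vasodilator peptide. It had 4, 10 and 5 reads in the libraries labelled -/-, against 85, 30 and 33 reads in flox/flox, which is 0.102, 0.284 and 0.176 CPM in the libraries labelled -/- and 2.87, 1.14 and 1.31 CPM in flox/flox. Few reads stood behind the gene in every library, and the groups did not overlap. The log2 fold change was -3.25 ± 0.52 (adjusted p = 0.00304, edgeR). Ndrg1, a gene of differentiation and stress, measured 14.6, 15.5 and 7.95 CPM in the libraries labelled -/-, against 26.6, 33.5 and 48.0 CPM in flox/flox. It was lower in all libraries labelled -/-, with a change of -1.49 ± 0.29 (adjusted p = 0.00695, edgeR), and 8.43% of its exonic bases overlap other genes. Vegfa, the growth factor of blood vessels and a classic HIF target, averaged 25.2 ± 0.955 CPM in libraries labelled -/- and 33.4 ± 6.77 CPM in flox/flox. Its log2 value of -0.41 ± 0.14 missed the threshold (adjusted p = 0.0596, edgeR). It passed without flox/flox C (-0.55, 0.00411), by DESeq2 (0.0346) and in the blocked fit (0.0275).

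The collagen prolyl 4-hydroxylase genes went in opposite directions. P4ha1, the major catalytic subunit, measured 33.0, 32.7 and 26.7 CPM in the libraries labelled -/-, against 89.8, 69.0 and 55.4 CPM in flox/flox. The highest library labelled -/- was well below the lowest control, and the change was -1.21 ± 0.17 (adjusted p = 0.00213, edgeR). P4ha2 measured 13.5, 15.1 and 8.23 CPM in the libraries labelled -/-, against 7.43, 5.32 and 6.25 CPM in flox/flox. It rose by 0.95 ± 0.24 (adjusted p = 0.0181, edgeR). That call was lost with the chromosome 11 offset (0.44, adjusted p = 0.197), without flox/flox B (0.0721), without -/- A (0.0521) and without -/- B (0.0617).

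Ddit4, also known as REDD1, encodes an inhibitor of mTORC1 signalling that hypoxia and other stresses induce. It averaged 130 ± 13.1 CPM in the libraries labelled -/- and 95.3 ± 3.67 CPM in flox/flox and rose by 0.44 ± 0.08 (adjusted p = 0.00531, edgeR), opposite to Pdk1, Adm and Egln3. The other 3 hypoxia genes did not pass. Bnip3, a mitophagy receptor gene, averaged 11.6 ± 0.243 CPM in libraries labelled -/- and 12.4 ± 1.64 CPM in flox/flox (-0.10 ± 0.11), whose sign turned without flox/flox A (0.00205), and 22.3% of its exonic bases overlap other genes. Mxi1, an antagonist of MYC, averaged 49.4 ± 8.98 CPM in libraries labelled -/- and 57.9 ± 3.23 CPM in flox/flox (-0.23 ± 0.12) and passed without -/- C (-0.38, adjusted p = 0.00862, edgeR) and in the blocked fit (0.0436). Ankrd37 was at 0.516 ± 0.160 CPM in libraries labelled -/- and 0.684 ± 0.143 CPM in flox/flox (-0.40 ± 0.31), with 26.4% of its exonic bases overlapping other genes.

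Pairs and families of isoenzymes were compared as shares of their summed level per length, since such shares do not depend on the scaling of libraries. There were 10 families and 12 shares, and for all 12 the libraries of the groups did not overlap. Levels of single genes were apart in 51.0% of all genes tested, and no such count was made for shares of other gene pairs. The 3 phosphofructokinase shares are parts of one whole and not separate results. With 3 libraries against 3, the exact two-sided permutation test can give no p below 0.1, and it gave 0.1 for each (0.1 after adjustment over the 12), so that none could pass. Slc2a3 made up 21.9, 20.3 and 21.0% of the glucose transporter pair in the libraries labelled -/-, against 43.8, 35.5 and 28.7% in flox/flox. P4ha2 made up 20.5 ± 3.27% of its pair in libraries labelled -/- and 5.65 ± 1.12% in flox/flox, and Slc16a3 20.6 ± 1.77% in libraries labelled -/- and 11.1 ± 4.25% in flox/flox. Both of these, and Aldoc, lie on chromosome 11, and no share was computed with the chromosome 11 offset. Whether their groups stay apart with it was not tested.

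Pfkm accounted for 60.5 ± 3.46% of the phosphofructokinase subunit genes in the libraries labelled -/- and 47.9 ± 2.65% in flox/flox, Pfkl for 32.9 ± 4.35% in libraries labelled -/- and 40.8 ± 4.66% in flox/flox, and Pfkp for 6.60 ± 0.901% in libraries labelled -/- and 11.3 ± 2.31% in flox/flox. The share of Hk2 beside Hk1 was 56.4 ± 7.03% in libraries labelled -/- and 67.8 ± 3.84% in flox/flox. That of Ldhb beside Ldha was 47.3 ± 2.44% in libraries labelled -/- and 56.6 ± 3.81% in flox/flox, and 53.8 ± 2.77% in libraries labelled -/- and 62.9 ± 3.30% in flox/flox with copies added. Eno2 made up 10.0 ± 4.53% of its pair in libraries labelled -/- and 5.71 ± 1.07% in flox/flox, but 1.2 ± 0.526% in libraries labelled -/- and 0.667 ± 0.108% in flox/flox with the copies of Eno1 added. Pdk3 made up 90.0 ± 0.637% beside Pdk1 in libraries labelled -/- and 83.7 ± 3.81% in flox/flox, Egln3 8.40 ± 1.18% beside Egln1 in libraries labelled -/- and 12.8 ± 1.74% in flox/flox, and Aldoc 1.58 ± 0.262% beside Aldoa in libraries labelled -/- and 0.898 ± 0.0839% in flox/flox.

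**Figure D5:**
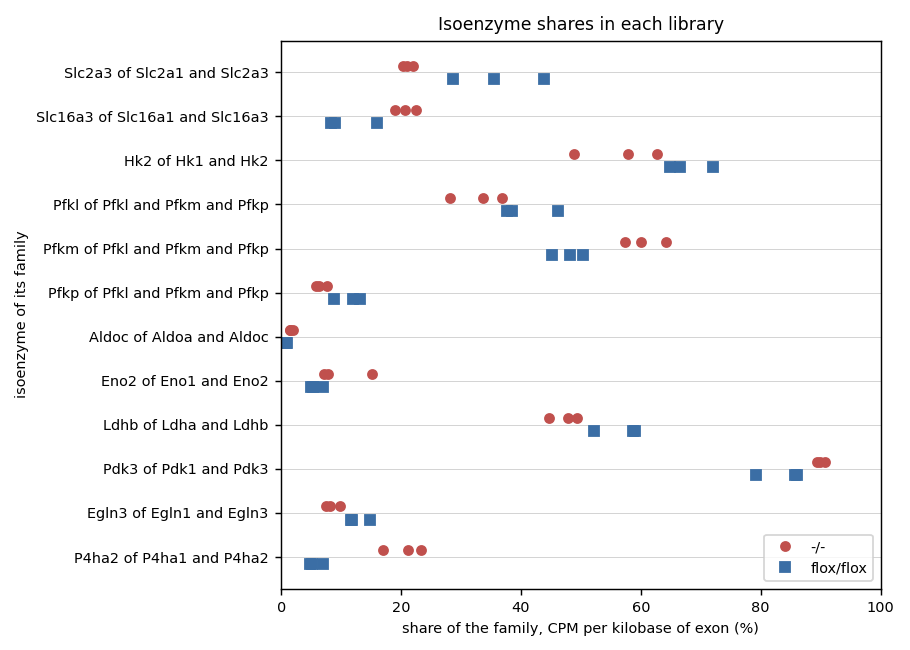
Share (%) of each isoenzyme in the summed level per kilobase of exon of its family, in every library. Red circles are libraries labelled -/- and blue squares flox/flox libraries. In each row the circles and squares do not overlap, and the widest gaps between means are those of Slc2a3 (a difference of -14.9 percentage points) and P4ha2 (14.8).

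Other genes of glucose metabolism were tested from a further list. Of 33 listed, 26 could be tested. Beside 17.4% and 17.9% over all genes tested, 3 fell (11.5%) and 8 rose (30.8%), with a median log2 fold change of 0.09. Without flox/flox B 2 of them rose, without flox/flox A or -/- C 4, without -/- B 5 and with the chromosome 11 offset 5, as 5 of the 26 lie there. Of all genes tested, 2315 rose without flox/flox B, 2858 without flox/flox A, 3346 without -/- C, 2677 without -/- B and 2929 with the offset, against 3679 in the main fit. Without flox/flox C 5 fell, and with the chromosome 11 offset 4. The transporter gene Slc2a4, on chromosome 11, did not pass in the main fit (-0.06 ± 0.09) but fell with the offset (-0.58 ± 0.09, adjusted p = 0.00330, edgeR). Bsg encodes basigin, the chaperone of the lactate carriers. It was at 190, 187 and 171 CPM in the libraries labelled -/-, against 266, 249 and 250 CPM in flox/flox, a fall of 0.48 ± 0.06 (log2, SE; adjusted p = 0.00134, edgeR). Eno4, a testis enolase (-1.62 ± 0.34), and the phosphoglucomutase gene Pgm1 (-0.75 ± 0.17) fell as well. Hkdc1, a hexokinase-like gene, was at 1.97 to 3.71 CPM in the libraries labelled -/- and at 0.114 to 0.642 CPM in flox/flox, a rise of 3.09 ± 0.50. The transporter gene Slc2a10 (1.65 ± 0.28) and, on chromosome 11, G6pc3 (0.33 ± 0.08) also rose. The value for G6pc3 was -0.18 with the chromosome 11 offset (adjusted p = 0.142, edgeR), so that its direction turned. Slc16a7, which encodes the monocarboxylate carrier MCT2 and was named after its value was seen, was at 6.15, 6.35 and 8.90 CPM in the libraries labelled -/-, against 4.63, 4.33 and 4.82 CPM in flox/flox. It rose by 0.63 ± 0.17 (adjusted p = 0.0245, edgeR).

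Among further genes known to be induced by hypoxia, 12 of 42 tested fell (28.6%) and 5 rose (11.9%), against 17.4% and 17.9% of all genes tested. The median log2 fold change was -0.13. Without flox/flox B or without -/- B 3 rose, in the blocked fit 9, and with the chromosome 11 offset 4. The clock-linked repressor gene Bhlhe40 fell by 0.65 ± 0.09, the apoptosis gene Pmaip1 by 1.72 ± 0.28 and Cited2, which competes with HIF for its coactivator, by 0.50 ± 0.09 (log2, SE). The rises with the smallest adjusted p were those of Narf (1.05 ± 0.11) and Jmjd6 (0.49 ± 0.06), both on chromosome 11, and of Car12, a carbonic anhydrase gene (2.06 ± 0.33). With the offset Narf was at 0.54 (adjusted p = 0.00825, edgeR), while Jmjd6 was at -0.02 and did not pass (0.813). Of 14 genes of the HIF machinery 2 fell (14.3%) and 1 rose (7.14%), against 17.4% and 17.9% of all genes tested. The groups were apart for 6 genes that were lower and 4 that were higher, against 25.4% and 25.5% of all genes tested. Whether this list differs from all genes was not tested. The median was 0.01. Those that fell were Egln2, the third hydroxylase of the family, by 0.55 ± 0.06, and Siah2, a ubiquitin ligase that acts on the hydroxylases, by 0.72 ± 0.12. Arnt2, a partner of HIF in neural cells, rose by 0.26 ± 0.08.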

How the data were processed

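RNA of 6 samples was sequenced from 1 µg with a stranded poly(A) kit, per the labels' protocols. The deposited table holds raw read counts per Ensembl gene, made by the authors with BWA 0.5.9 and featureCounts 1.4.6 on mm10 (GRCm38), per the submitters' processing notes. For the annotation release, the strand setting and how spliced or multiply mapping reads were treated, the sources used here give nothing; the name of the deposited table says that duplicate reads were marked. Reads of a gene and of an overlapping gene may therefore not be separable. Columns carry a genotype and a letter, the labels numbers, so columns were assigned to groups only, and 0 columns of samples were left out. Of 48526 identifiers, 48058 had a symbol in GENCODE M21.

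Counts were tested in R 4.3.3 with edgeR 4.0.16 (glmQLFit and glmQLFTest, two-sided, group alone, TMM scaling, filterByExpr with minimum count 10 and minimum total 15) and Benjamini-Hochberg adjustment over 20549 genes, with a threshold of 0.05. On simulated counts for this comparison (20369 genes tested), the test recovered 100% of 100 genes changed by 1 on the log2 scale and 68% of 100 changed by 0.5, with 10 calls among unchanged genes. The common biological coefficient of variation was 0.123. The simulation gave every gene a single value below this and changed no gene of low level. Its recovery therefore does not hold for more variable genes or for low ones such as Adm. Libraries of a group differed by more than sampling noise (chi-square per gene from 5.47 to 29.8). Same-letter libraries of the groups deviated together from their group means (correlations 0.275, 0.101 and 0.264 for A, B and C), so blocked values are printed where they change a call; the pairing comes from this check and not from the labels.

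Exonic lengths came from GENCODE M21, and copies from blastn 2.17.0, with the length limit set after the alignments were seen. Alternatives were 2 other scalings, 2 other filters, a threshold of 0.01, DESeq2 1.42.0, limma-voom (limma 3.58.1), the block, each library left out, a chromosome 11 offset and added copies. The members and lists were chosen with earlier results of these data known. All members are named. Of each further list, up to 3 genes per direction with the smallest adjusted p are named (1 progenitor marker is not reported by name here). Beside them stand Dppa5a and Gata6 as members of counts under 5, and Rbfox3 and Slc2a4 for their values with the chromosome 11 offset.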

Additional observations from a re-analysis of the deposited data

How the results depend on the processing

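Over 9 alternatives on all 6 libraries and each library left out, 490 values of the 36 members kept direction and side of the threshold, 22 passed newly, 19 no longer passed and 8 changed sign. No member that passed changed sign. With single libraries left out, 2315 to 3510 genes rose and 2342 to 3336 fell over all genes tested (3679 and 3571 with all 6), the lowest without flox/flox B for rises and without -/- B for falls. Among members 2 to 5 rose and 11 to 16 fell, with 1 to 3 and 7 to 11 in the glycolytic arm and 1 to 2 and 4 to 5 in the hypoxia arm. Of other hypoxia targets 3 to 7 rose and 9 to 12 fell, and of other glycolysis genes 2 to 9 rose and 3 to 5 fell. At a threshold of 0.01, 1992 genes rose and 1895 fell, 2 members rose and 10 fell (1 and 6 in the glycolytic arm, 1 rise in the hypoxia arm), 3 other hypoxia targets rose and 6 fell, and 2 other glycolysis genes rose. With the replicate block, 4 members of the glycolytic arm and 9 other hypoxia targets rose, 19 members fell in all, and beyond Slc16a3, Hk2, Gpi1, Pgk1, Ldha, Vegfa and Mxi1 it changed no other member's call. With the chromosome 11 offset 1 hypoxia member and 5 other glycolysis genes rose. With single libraries left out the log2 fold change ran from -0.121 to 0.111 for Pfkl, from -0.122 to 0.135 for Tpi1, from -0.234 to 0.224 for Eno2 and from -0.188 to 0.00205 for Bnip3. Signs turned without flox/flox A for Pfkl (0.111), Tpi1 (0.135), Eno2 (0.224) and Bnip3 (0.00205), without -/- A for Eno2 (0.0710), without -/- B for Eno2 (0.0999), and without -/- C for Pfkl (0.0384) and Tpi1 (0.0185). The shares of Eno2 and Ldhb kept their direction with copies added. The cause of these changes was not tested, except that fewer samples enter when a library is left out. Adm and Ankrd37 are limited by depth, at under 100 reads in each library for Adm.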

Other observations

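Genes of the branches that leave glycolysis are given here. Of 12 tested genes that carry pyruvate into mitochondria or oxidise it (13 listed), 1 passed and rose (8.33%, against 17.9% over all genes). The median log2 fold change was 0.00. The gene that rose was Pdk2, a kinase of pyruvate dehydrogenase on chromosome 11, at 15.5 ± 1.33 CPM in the libraries labelled -/- and 10.4 ± 2.36 CPM in flox/flox (SD, n = 3 each; 0.57 ± 0.16, log2, SE; adjusted p = 0.0322, edgeR). With the chromosome 11 offset its value was 0.05 and did not pass (adjusted p = 0.846, edgeR). The subunit genes Pdha1, Pdhb, Dlat and Dld of pyruvate dehydrogenase, added for their role, had log2 differences of -0.13, -0.01, -0.08 and 0.07.

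Of 9 genes of the pentose phosphate pathway, which makes NADPH and ribose from glucose, 2 fell (22.2%) and 1 rose (11.1%). Over all genes tested 17.4% fell and 17.9% rose. G6pdx, the gene of the first enzyme, rose by 0.35 ± 0.06 (log2, SE; adjusted p = 0.00449, edgeR), with groups that did not overlap. Taldo1 fell by 0.24 ± 0.06 and H6pd by 0.59 ± 0.19. Of 10 proliferation markers 2 rose, Top2a (0.61 ± 0.07) and Aurkb (0.63 ± 0.11), both on chromosome 11, and Cdk1 fell by 0.28 ± 0.07. With the offset, applied to these genes after their values were seen, Top2a was at 0.09 (adjusted p = 0.382, edgeR) and Aurkb at 0.11 (0.452), and neither passed. The receptors of the Vegfa product moved apart. Kdr fell by 3.69 ± 0.44, to 6.23, 3.12 and 2.89 CPM in the libraries labelled -/-, against 78.6, 53.3 and 28.4 CPM in flox/flox, and Flt1 (added after its value was seen) rose by 1.17 ± 0.29.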
